A study of Schizosaccharomyces pombe with 8 samples.

Results

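The genes that switch on as fission yeast (Schizosaccharomyces pombe) enters S phase were followed at 10 loci, cdc18, cdt1, cdc22, cig2, mik1, yox1, suc22, nrm1, ssb1 and cdt2, in chromatin immunoprecipitation sequencing (ChIP-seq) of wild-type cells. They were picked by systematic identifier for their place in the regulon of the transcription factor MBF. No rule used their signal, but earlier results of these data were known when they were chosen. They make up 10 of the 5129 protein-coding gene rows of the table. By the labels and the methods, all libraries came from wild-type strain YAM2394 (genotype h+ ade6-M210 ura4-D18 leu1-32), although the study also names another wild-type strain, YAM2400, for these experiments. Cells were fixed with formaldehyde during exponential growth, so each value is an average over cells at every stage of the cycle. Histone H3, H3 acetylated on lysine 14 (H3K14ac) and acetylated histone H4 (H4ac) were each precipitated from 2 biological replicates. The labels list 8 libraries, of which the 6 immunoprecipitations were used and the 2 Input libraries (chromatin before precipitation) were not analysed here. Signal is given as tags per nt of a row (tag density) and had not been divided by Input or by H3.

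MBF is a DNA-binding complex of Cdc10 with Res1 and Res2 that drives a wave of transcription at the passage from G1 to S phase. It recognises the MluI cell cycle box, whose core is ACGCG, in the promoters of its targets, and the co-repressors Yox1 and Nrm1 hold it in check outside this window. Its targets load the replicative helicase on origins, make and bind the materials of DNA synthesis, and set the activity of the cyclin-dependent kinase Cdc2. Acetylation of H3 and H4 is a mark of chromatin that is open to transcription. Antisense noncoding RNAs run through many genes of this yeast, and those degraded by the cytoplasmic exonuclease Exo2 are called Xrn1-sensitive unstable transcripts (XUTs).

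The promoters show what most of the 10 genes have in common. Each promoter was read from 250 nt before to 50 nt after the gene start given by RefSeq for assembly ASM294v3, and the core ACGCG (or CGCGT, the same core on the other strand) was found in 9 of 10 of them, against 11.4% of 5112 such windows in the genome. The 6-base palindrome ACGCGT, which holds the core on both strands, was present in 5 (cdt1, cdc22, yox1, ssb1 and cdt2), against 3.25% of all windows. No match was found for suc22. A match is a stretch of letters and not evidence of binding. The densest stretch of 30 bases in each of the other 9 promoters is printed on the strand of the gene, with the matches in capitals.
cdc18 (II:2218018-2218047, minus strand): ttCGCGTttacgtgtCGCGTCGCGTatatt
cdt1 (II:477304-477333, plus strand): atagctACGCGACGCGTcaacaaACGCGac
cdc22 (I:4226901-4226930, plus strand): tagcgtgACGCGTctgaACGCGTttttcat
cig2 (I:2709710-2709739, plus strand): agCGCGTttctCGCGTCGCGTCGCGTttac
mik1 (II:221317-221346, plus strand): CGCGTCGCGTtatcccaaatgaaaaACGCG
yox1 (II:1648163-1648192, plus strand): tgatatagcgcgACGCGTcgttaaacgtga
nrm1 (II:4285878-4285907, plus strand): taaagggcgtCGCGTCGCGTtgcgttggac
ssb1 (II:221339-221368, minus strand): ttacgACGCGTcatgACGCGTtCGCGTttt
cdt2 (I:2035744-2035773, minus strand): tcacggACGCGTCGCGTtcACGCGTcacga
In 8 of these genes the stretch lies before the RefSeq gene start, between position -88 (cdt1) and position -34 (cdc18). That of mik1 lies at positions 19 to 48 after it. The gene rows used below start elsewhere, at 60 nt (mik1), -203 nt (cdt1) and -79 nt (yox1) from the RefSeq start. Relative to these rows, the stretch of mik1 lies before the start, and those of cdt1 and yox1 lie inside the row. The stretches of cdc18, cig2 and nrm1 span the start of the row, which lies at -47, -51 and -45 nt from the RefSeq start. The genes ssb1 and mik1 are divergent neighbours, their rows in the table are 31 nt apart, and their 2 stretches overlap on the chromosome.

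Tags in gene rows summed to between 14014219 and 15214393 per library, and between 1427 and 6308 tags per library lay behind each density of the 10 genes. Across 5128 genes, which are not independent replicates, Pearson's r between replicates lay between 0.992 (H3) and 0.996 (H3K14ac). In the 10 genes, the 2 replicates of an antibody differed by at most 0.08 on the log2 scale. Each library was scaled by 1 factor whose basis is not given. A log2 ratio of 0 therefore marks equal scaled densities, not an equal share of tags or an equal amount of the histone marks. By voom, which scales each library by its tags in gene rows, the ratios to H3 of the 10 genes were all higher. H3K14ac/H3 at cdt1 was then 0.17 instead of 0.09, and H4ac/H3 at suc22 -0.0048 instead of -0.07. Ratios this close to 0 depend on the scaling.

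The 10 genes did not share a common acetylation state. H3K14ac relative to H3 ranged from a log2 ratio of -1.04 at ssb1 to 0.33 at cdc22, and H4ac relative to H3 from -1.24 at mik1 to 0.56 at cdc22. H3K14ac was higher than H3 in 3 of the 10 genes (cdt1, cdc22 and cdt2) and lower in 6 (limma, adjusted p under 0.05), while 47.4% of 5128 genes were called higher and 45.9% lower. H4ac was higher than H3 in 2 (cdc22 and nrm1) and lower in 6, where 47.1% of all genes were called higher and 45.5% lower. H3K14ac exceeded H4ac in 5 (cdc18, cdt1, mik1, yox1 and cdt2) and was below it in 4, where 32.9% of all genes were called higher and 36.6% lower. Most genes passed the tests against H3, so the size of a ratio says more than the call. With a difference of at least 1.5-fold in addition, 3 of the 10 were lower than H3 in both marks (mik1, yox1 and ssb1), none was higher, and none differed between the marks. In either direction, 2320 of 5128 genes passed both thresholds for H3K14ac against H3 and 2129 for H4ac against H3. For H3K14ac against H4ac, 126 did. In the 10 genes the median log2 ratio to H3 was -0.16 with H3K14ac and -0.16 with H4ac, against 0.01 and 0.01 in all genes. The 3222 genes of the same length range (1452 to 4432 nt) had medians of -0.17 and -0.14, close to those of the 10.

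**Figure D1:**
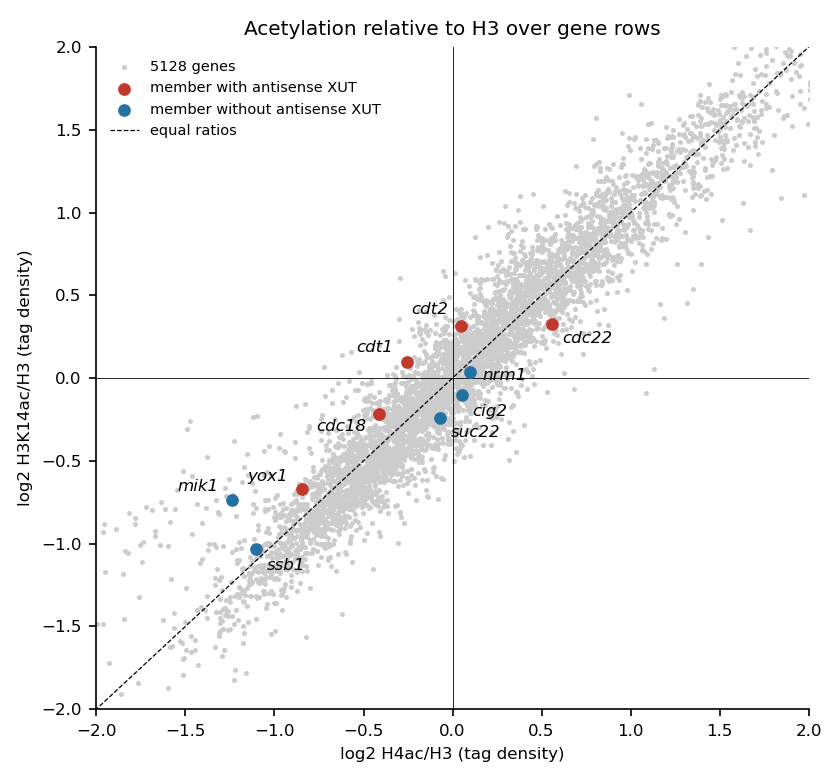
Log2 H3K14ac/H3 (y axis) against log2 H4ac/H3 (x axis), both log2 ratios of tag density, for 5128 genes (grey points, of which 5016 lie inside the axes) and the 10 G1/S genes (coloured by antisense XUT). The dashed line marks equal ratios. The 10 genes spread along the cloud from ssb1 and mik1 at the low end to cdc22, and mik1 lies to the left of the line with H4ac at -1.24 against H3K14ac at -0.73.

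Cdc18 and Cdt1 together load the MCM helicase on replication origins. At cdc18 (SPBC14C8.07c, chromosome II, 2215955 to 2218031 in the coordinates of the table, assembly ASM294v2) the H3 density was 1.23 and 1.21 tags per nt in replicates 1 and 2, H3K14ac was 1.06 and 1.04, and H4ac was 0.918 and 0.912. The 3 antibodies did not overlap, with H3 highest and H4ac lowest. Relative to H3, H3K14ac was lower by a log2 ratio of -0.22 (SE 0.03, adjusted p = 1.31e-05) and H4ac by -0.41 (SE 0.03, adjusted p = 6.25e-08). At cdt1 (SPBC428.18, chromosome II, 477189 to 478738) the densities were 1.27 and 1.27 for H3, 1.33 and 1.38 for H3K14ac, and 1.09 and 1.03 for H4ac. Here the marks fell on either side of H3, again with no overlap between antibodies. H3K14ac was above H3 by 0.09 (SE 0.03, adjusted p = 0.0146), H4ac was below it by a log2 ratio of -0.26 (adjusted p = 1.58e-05), and the log2 ratio of H3K14ac to H4ac was 0.35 (SE 0.03, adjusted p = 8.57e-06), at the 94.7th percentile of all genes. The small excess of H3K14ac over H3 at cdt1 did not pass the test without H3 replicate 1 (adjusted p = 0.0512), without H3K14ac replicate 2 (adjusted p = 0.112) or over coding exons only (adjusted p = 0.085).

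Cdc22 and Suc22 are the large and small subunits of ribonucleotide reductase, which makes deoxyribonucleotides, and Ssb1 is the large subunit of replication protein A, which covers single-stranded DNA. The 2 subunits of the reductase stood apart in their chromatin. At cdc22 (SPAC1F7.05, chromosome I, 4226958 to 4229989) the densities were 1.29 and 1.29 for H3, 1.64 and 1.60 for H3K14ac, and 1.88 and 1.92 for H4ac, so that both marks lay clear of H3 and H4ac was the higher. Relative to H3 this was the most acetylated of the 10 genes in both marks, by log2 ratios to H3 of 0.33 (SE 0.03, adjusted p = 5.63e-07) and 0.56 (SE 0.03, adjusted p = 7.01e-09). Its H3K14ac was below its H4ac by a log2 ratio of -0.23 (adjusted p = 4.65e-05). Suc22 (SPBC25D12.04, chromosome II, 3721621 to 3723072) had the lowest H3 of the 10, at 1.13 and 1.18 tags per nt, with H3K14ac at 0.964 and 0.989 and H4ac at 1.11 and 1.09. Its H3K14ac was clearly separate from the other antibodies, whereas H4ac was only slightly below H3. The log2 ratio to H3 was -0.24 for H3K14ac (SE 0.03, adjusted p = 1.35e-05) and -0.07 for H4ac (SE 0.03, adjusted p = 0.0381). The latter did not pass the test by voom (log2 ratio -0.0048, adjusted p = 0.898) or with each library centred on its median (adjusted p = 0.0745). It was also lost without H3 replicate 2 (adjusted p = 0.242), H4ac replicate 1 (adjusted p = 0.0703) or H4ac replicate 2 (adjusted p = 0.137).

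At ssb1 (SPBC660.13c, chromosome II, 219182 to 221326) the densities were 1.38 and 1.36 for H3, 0.676 and 0.653 for H3K14ac, and 0.639 and 0.627 for H4ac. Both marks were far below H3, with all acetylation values under every H3 value and little between the marks. H3K14ac was 2.05-fold lower than H3 (log2 ratio -1.04, SE 0.03, adjusted p = 2.24e-10), which placed ssb1 at the 6.03th percentile of all genes. H4ac was 2.15-fold lower (log2 ratio -1.10, SE 0.03, adjusted p = 1.70e-10). The marks differed from each other by a log2 ratio of 0.07 (SE 0.03, adjusted p = 0.0764), which did not pass the test.

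Cig2 is the main cyclin of S phase, Mik1 is a kinase that inhibits Cdc2 by tyrosine phosphorylation, and Cdt2 directs a ubiquitin ligase to Cdt1 and to the reductase inhibitor Spd1. At cig2 (SPAPB2B4.03, chromosome I, 2709731 to 2714162), the longest of the 10 rows with 4432 nt, the densities were 1.20 and 1.22 for H3, 1.12 and 1.13 for H3K14ac, and 1.27 and 1.24 for H4ac. The antibodies were close to each other but did not overlap. H3K14ac was slightly lower than H3 (log2 ratio -0.10, SE 0.03, adjusted p = 0.00372), a call that was lost by voom on recovered tags (log2 ratio -0.023, adjusted p = 0.325) and over coding exons only (0.0037, adjusted p = 0.913). H4ac, at a log2 ratio of 0.05, did not pass the test (adjusted p = 0.0678). The H4ac value was called higher than H3 by voom on recovered tags (log2 ratio 0.12, adjusted p = 2.49e-06). It also was by limma over coding exons only (0.19, adjusted p = 0.000192) and with each library centred on its median (0.07, adjusted p = 0.034). The log2 ratio was 0.04 without H4ac replicate 1 and 0.07 without H4ac replicate 2.

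At mik1 (SPBC660.14, chromosome II, 221358 to 224117) the densities were 1.28 and 1.24 for H3, 0.765 and 0.740 for H3K14ac, and 0.533 and 0.522 for H4ac. H3 was ordinary, at the 52.9th percentile of all genes, while both marks were low and H4ac was the lowest value of any of the 10 genes. H4ac was 2.36-fold lower than H3 (log2 ratio -1.24, SE 0.03, adjusted p = 1.30e-10, 2.75th percentile) and H3K14ac 1.66-fold lower (log2 ratio -0.73, SE 0.03, adjusted p = 4.78e-09, 14.9th percentile). Mik1 was therefore the gene of the 10 in which the marks differed most, with a log2 ratio of H3K14ac to H4ac of 0.51 (SE 0.03, adjusted p = 1.62e-06), at the 97.6th percentile of all genes. Its divergent partner ssb1 shared the low ratios to H3 but not the gap between the marks.

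At cdt2 (SPAC17H9.19c, chromosome I, 2033768 to 2035673) the densities were 1.40 and 1.42 for H3, 1.78 and 1.74 for H3K14ac, and 1.46 and 1.46 for H4ac. H3K14ac stood clear of the other antibodies, and H4ac was only marginally above H3. The log2 ratio to H3 was 0.31 for H3K14ac (SE 0.03, adjusted p = 6.47e-07) and 0.05 for H4ac, which did not pass the test (adjusted p = 0.107). H3K14ac exceeded H4ac by 0.27 (SE 0.03, adjusted p = 1.59e-05).

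The co-repressors Yox1, a homeodomain protein, and Nrm1 are products of MBF targets and act back on MBF. At yox1 (SPBC21B10.13c, chromosome II, 1648153 to 1650147) the H3 density was 1.51 and 1.52, the highest of the 10 genes and at the 91.6th percentile of all genes, with H3K14ac at 0.972 and 0.931 and H4ac at 0.838 and 0.841. All 4 acetylation values were well under the H3 values. H3K14ac was 1.59-fold lower than H3 (log2 ratio -0.67, SE 0.03, adjusted p = 2.56e-09) and H4ac 1.80-fold lower (log2 ratio -0.85, SE 0.03, adjusted p = 4.95e-10). The row of yox1 in the table is 1995 nt long, against 609 nt in RefSeq, and contains the whole of another gene, as described with the rows around the genes. At nrm1 (SPBC16A3.07c, chromosome II, 4285899 to 4288583) the densities were 1.18 and 1.18 for H3, 1.22 and 1.21 for H3K14ac, and 1.26 and 1.27 for H4ac. These were nearly level, with H4ac slightly above H3 (log2 ratio 0.10, SE 0.02, adjusted p = 0.00291) and H3K14ac not separable from it (log2 ratio 0.04, SE 0.02, adjusted p = 0.163). The small deficit of H3K14ac against H4ac at nrm1 (log2 ratio -0.06, adjusted p = 0.0461) did not pass the test without any 1 of the 6 libraries (adjusted p from 0.0617 to 0.14).

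**Figure D2:**
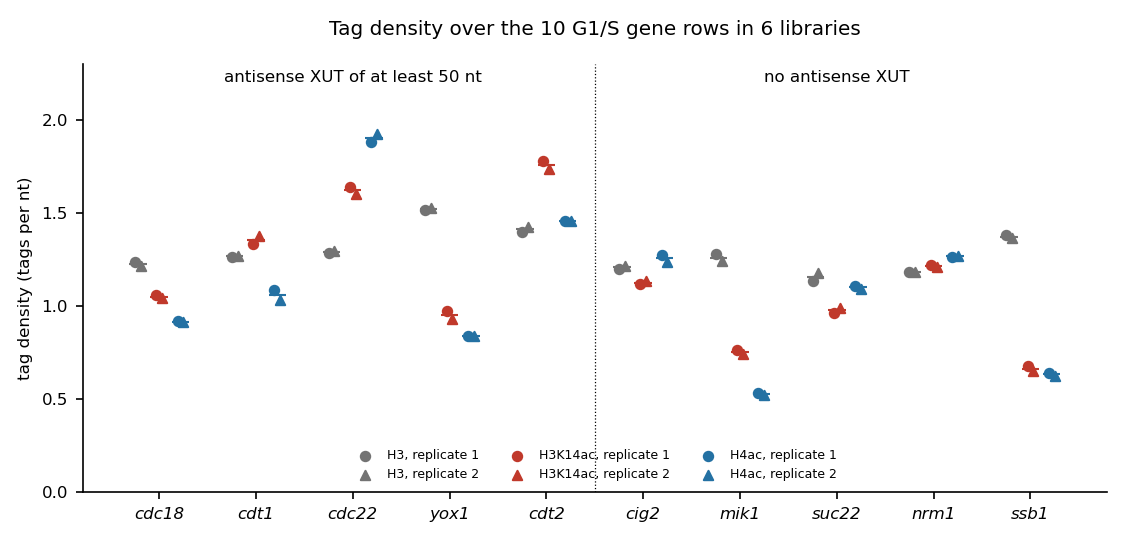
Tag density (y axis, tags per nt) over each of the 10 gene rows in the 6 libraries, with circles for replicate 1, triangles for replicate 2 and short lines for the mean, and the genes with an antisense XUT on the left. H3 stays between 1.13 and 1.52 in every gene, while H4ac reaches from 0.522 (mik1) to 1.92 (cdc22).

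The order of the genes was not the same for the 2 marks. From high to low, H3K14ac/H3 ran cdc22, cdt2, cdt1, nrm1, cig2, cdc18, suc22, yox1, mik1 and ssb1. Of the neighbours in this order, cdc22 and cdt2 overlapped when the replicates were paired by number (0.35 and 0.30 against 0.35 and 0.28) and the rest did not. H4ac/H3 ran cdc22, nrm1, cig2, cdt2, suc22, cdt1, cdc18, yox1, ssb1 and mik1. There cig2 (0.08 and 0.03) and cdt2 (0.06 and 0.03) overlapped and the rest did not. Differences between genes were not tested, and overlap with the replicates paired otherwise was not examined.

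An antisense XUT (asXUT), a XUT on the opposite strand overlapping the gene row by at least 50 nt, was found at 5 of the 10 genes (cdc18, cdt1, cdc22, yox1 and cdt2), against 1086 of 5128 genes tested. The question behind this split is whether acetylation differs in genes with an asXUT. H3K14ac was above H3 in 3 of the 5 genes with an asXUT and in 0 of the 5 without, where 4 were lower and nrm1 did not pass the test. Over all genes, 58.6% of those with an asXUT and 44.4% of those without were called higher, and 35.5% and 48.7% were called lower, so 3 of 5 is close to the share in asXUT genes at large. At an unadjusted p under 0.05 the count in the 5 genes without was also 0. By voom on recovered tags it was 1 (nrm1, log2 ratio 0.12, adjusted p = 7.37e-05). Over coding exons only, limma called cdc22 and cdt2 higher among the genes with an asXUT, and nrm1 among those without (log2 ratio 0.12, adjusted p = 0.00516). There cdt1 did not pass the test (log2 ratio 0.07, adjusted p = 0.085), so the contrast in calls depended on the setting. The median log2 H3K14ac/H3 was 0.09 with an asXUT and -0.24 without, a difference of 0.34 (0.31 in replicate 1 and 0.36 in replicate 2). In all genes this difference was 0.25. The 5 values with an asXUT (-0.67 to 0.33) overlapped widely with the 5 without (-1.04 to 0.04), and no test was run on so few chosen genes. The difference stayed positive when each of the 10 genes was left out in turn, between 0.18 and 0.58.

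H4ac did not follow the same split. The median log2 H4ac/H3 was -0.26 in the 5 genes with an asXUT and -0.07 in the 5 without, a difference of -0.19, while all genes gave 0.25. This direction was not stable. The difference was 0.33 without cig2 or without nrm1 and 0.27 without suc22, and it was 0.022 over coding exons only. H3 itself was 0.38 with an asXUT and 0.28 without on the log2 scale, a difference of 0.09 against 0.01 in all genes, and over coding exons only it was 0.0079.

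Of the 5 genes with an asXUT, 4 had H3K14ac above H4ac (cdc18, cdt1, yox1 and cdt2) and cdc22 had the reverse. Of the 5 without, mik1 had H3K14ac above H4ac, 3 had the reverse (cig2, suc22 and nrm1) and ssb1 did not pass the test. Over all genes, H3K14ac was called above H4ac in 33.5% of those with an asXUT and 32.7% of those without, and below it in 35.3% and 37.0%. The median log2 H3K14ac/H4ac was 0.20 with an asXUT and -0.06 without. In all genes these medians were -0.01 and -0.01, and no such gap between the marks was seen over asXUT genes at large.

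**Figure D3:**
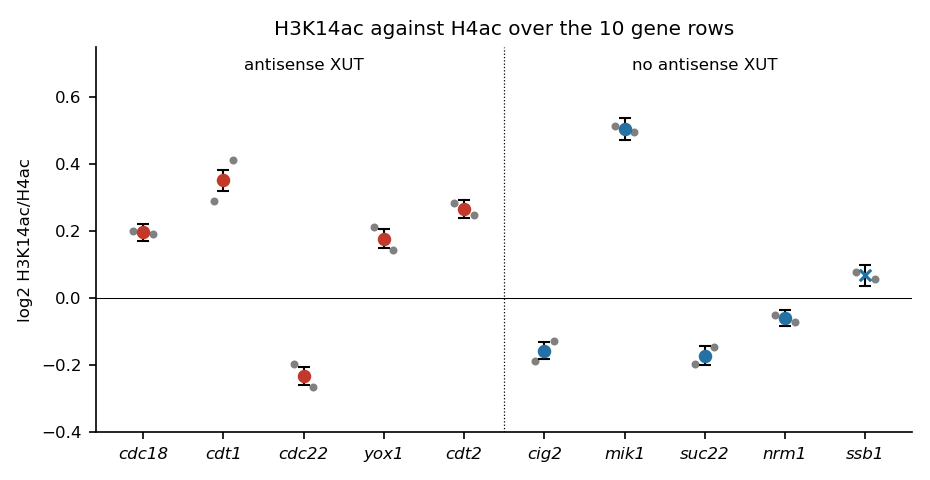
Log2 H3K14ac/H4ac (y axis) for each of the 10 genes, with the mean and its SE from limma (large point and bar), a cross where the adjusted p was 0.05 or more, and the values of replicates 1 and 2 as small grey points. Of the 5 genes with an asXUT, only cdc22 is below 0, and of the 5 without, mik1 is highest at 0.51.

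The position of the XUT differed from gene to gene. XUT0194 covered 99.9% of cdt1 and XUT1404 covered 82.0% of cdt2 and reached 370 nt beyond its start. Their own log2 H3K14ac/H3, 0.09 and 0.34, is that of the genes they cover, since a ChIP tag has no strand and is shared by both rows. At cdc18, XUT1104 covered the first 729 nt and 141 nt before the start. Over this row the H3 density was 1.00 and 0.962, H3K14ac 1.26 and 1.22, and H4ac 0.896 and 0.830, so H3K14ac lay above H3 where the whole cdc18 row had it below. The log2 ratio to H3 was 0.33 for H3K14ac and -0.18 for H4ac in the XUT row, against -0.22 and -0.41 in the gene row. At yox1, XUT0266 covered 134 nt of the gene and 121 nt before its start, with a log2 H3K14ac/H3 of 0.63, and XUT0267 covered 498 nt within it, with -0.16. XUT1104 and XUT0266 both span the start of the gene row, and whether position or the XUT goes with their ratios was not tested. The asXUT of cdc22 was placed otherwise. XUT0710 lay inside the gene, from 174 nt after the start, over 458 nt. Its log2 H3K14ac/H3 was -0.13 and its log2 H4ac/H3 -0.07, both lower than the 0.33 and 0.56 of the gene row. Other antisense noncoding rows, not XUTs, also lay in cdc22. A long one covered 2327 nt (76.7%) of the gene, with ratios of 0.26 and 0.52. A short one of 212 nt near the end had 0.70 and 0.82.

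Other annotated units overlapped the genes as well, and their tags count in both rows. The row of yox1 contains the whole of rec6, a gene of meiotic recombination on the other strand (724 nt), over which log2 H3K14ac/H3 was -1.32 (adjusted p = 2.25e-10) and log2 H4ac/H3 -1.25 (adjusted p = 3.71e-10). The coding exon of yox1 itself had -0.17 and -0.60. The antisense gene dpm2 overlapped the last 158 nt of the yox1 row, with 0.49 and 0.16 over its own row. The yox1 row thus takes in genes with unlike ratios. At cig2, the antisense gene pmc1 overlapped the last 1459 nt, with log2 H3K14ac/H3 of -0.37 over its row, and the antisense noncoding RNA SPNCRNA.846 covered 1954 nt around the coding exon, with 0.0027. Over the coding exon of cig2 the 2 ratios were 0.0037 and 0.19. The antisense gene tad1 overlapped nrm1 by 1442 nt. Over the coding exon of nrm1, log2 H3K14ac/H3 was 0.12 and log2 H4ac/H3 -0.03, and the order of the 2 marks was thus the reverse of that in the gene row (log2 H3K14ac/H4ac 0.15, adjusted p = 0.00242). Over the coding exon of suc22 both ratios were lower than in the gene row (-0.48 and -0.33 against -0.24 and -0.07).

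Within ssb1 the signal was uneven. Its first coding exon, of 41 nt and starting 66 nt after the gene start, had H3K14ac at 3.02 and 2.70 tags per nt, H4ac at 2.45 and 2.37, and H3 at 1.06 and 0.829. Both marks were far above H3 there. The second coding exon, of 1789 nt, had H3K14ac at 0.658 and 0.634 and H4ac at 0.627 and 0.621, with H3 at 1.514 and 1.501, and the marks were far below H3. The log2 H3K14ac/H3 was 1.60 in the first and -1.21 in the second exon. An exon of 41 nt is shorter than a read of 50 nt, so its value includes tags of the sequence beside it. The exons of mik1 start further inside the gene, 341 nt after the start, and had log2 H3K14ac/H3 of -0.95 and -1.10 and log2 H4ac/H3 of -1.61 and -1.57.

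**Figure D4:**
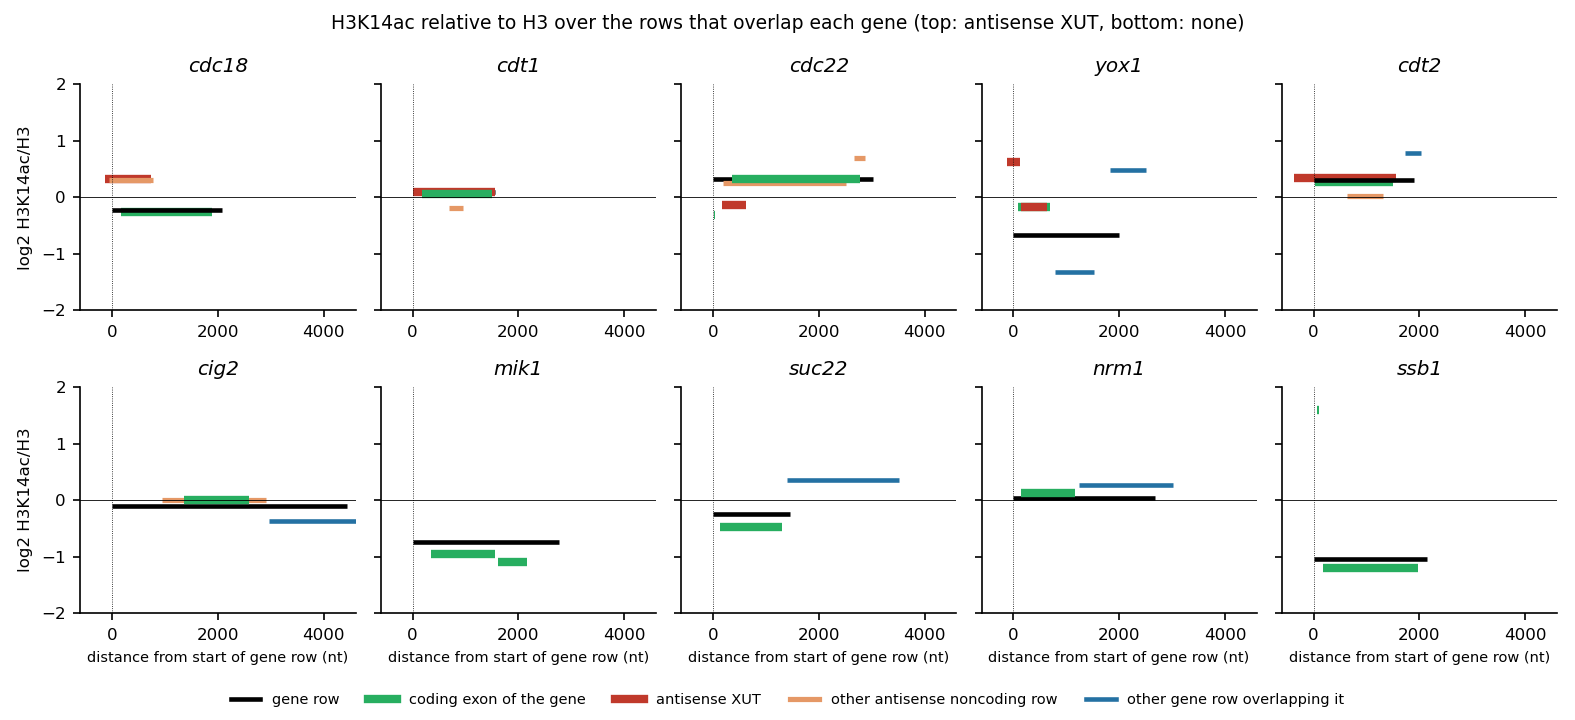
Log2 H3K14ac/H3 (y axis) of the annotated rows that overlap each of the 10 genes, drawn at their distance from the start of the gene row (x axis, nt, in the direction of transcription), with rows reaching past the axis, such as pmc1 at cig2, cut off. The XUT rows over the starts of cdc18 (0.33) and yox1 (0.63) lie above the gene rows (-0.22 and -0.67), and rec6, inside yox1, lies below at -1.32.

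The gene rows next to the 10 genes varied in their levels. Upstream of cdc18, mrpl24, which begins 146 nt away on the other strand, had both marks above H3 (log2 ratios of 0.48 and 0.14, adjusted p = 1.04e-08 and 0.000264), against -0.22 and -0.41 at cdc18. Downstream of cdt2, mdm10, for a protein of the mitochondrial membrane, had 0.80 and 0.64. On the far side of mik1, msi2 had -0.77 and -0.58, so low ratios ran through ssb1, mik1 and msi2, whereas egt2 on the far side of ssb1 had -0.13 and -0.12. The gene upstream of suc22, mcm7, codes for a subunit of the replicative helicase and was low in both marks (-0.74 and -0.76, adjusted p = 7.81e-10 and 7.44e-10).

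Likeness of signal to all other genes was measured as the root mean square difference of the 6 log2 densities. The nearest gene was SPBC725.03 for cdc18, smd3 for cdt1, gcn5 for cdc22, swd1 for cig2, tgd1 for mik1, psk1 for yox1, his4 for suc22, tls1 for nrm1, SPCC320.08 for ssb1 and sxa2 for cdt2, at distances from 0.02 (nrm1) to 0.06 (cdt1). The closest pair among the 10 was cig2 and nrm1, at a distance of 0.07, and 39 genes were closer to cig2 and 62 closer to nrm1 than that. For mik1 the nearest of the 10 was its neighbour ssb1, with 33 genes closer.

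A further 5 groups of genes put the 10 in the context of S phase. Beside their counts stand the shares of all genes given above, 47.4% higher and 45.9% lower for H3K14ac and 47.1% and 45.5% for H4ac. Of 5 genes for MBF itself and its regulators, leaving out yox1 and nrm1, which are among the 10, H3K14ac was lower than H3 in 4 and H4ac in 5, and none was higher in either mark by limma, at an adjusted or an unadjusted p under 0.05, or by voom (0 in each). Res2, a DNA-binding subunit, had log2 ratios of -0.73 for H3K14ac and -0.79 for H4ac, res1 -0.36 and -0.18, cdc10, the subunit common to all forms of MBF, -0.54 and -0.52, the activator rep2 -0.42 and -0.80, and rep1 -0.04 (adjusted p = 0.139) and -0.12. Origin licensing and firing, with 23 genes, was split, with H3K14ac higher in 9 and lower in 12 and H4ac higher in 9 and lower in 11. The genes named in each list are the 2 highest and the 2 lowest by the mean of both log2 ratios to H3, and they need not be the extremes of either mark alone. In this list they were psf1 (1.42 and 1.15) and psf3 (1.06 and 1.63), both of the GINS complex, and the helicase subunit mcm5 (-0.90 and -0.80) and dfp1 (-0.93 and -0.94), the partner of the kinase Hsk1.

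Among 22 replication fork genes, H3K14ac was higher in 10 and lower in 12 and H4ac higher in 11 and lower in 10. By the mean of both ratios, they ranged from dpb3, a small subunit of polymerase epsilon, with 1.48 and 1.39, and rfc3 of the clamp loader, with 0.81 and 0.83, to cdc20, the catalytic subunit of polymerase epsilon, with -0.74 and -0.50, and cdc1 of polymerase delta, with -1.21 and -0.98. Of 15 cell cycle regulators, H3K14ac was lower in 10 and higher in 4 and H4ac lower in 11 and higher in 4. The kinase gene wee1, whose product acts on Cdc2 as Mik1 does, was low in both (-1.50 and -1.18), as was the phosphatase gene cdc25 (-0.97 and -1.11), while spd1 (0.52 and 0.46) and the cyclin gene puc1 (0.34 and 0.43) were high. Of 9 other genes of the G1/S wave, 7 were lower and 2 higher in each mark. The higher ones were mrc1, a mediator of the replication checkpoint (0.55 and 0.54), and dut1, for dUTPase (0.23 and 0.45), and the lowest by the mean of both ratios were ctp1, of DNA end resection (-0.99 and -1.20), and the cohesin gene psm3 (-0.92 and -0.82). The medians over these 9 were -0.55 (H3K14ac/H3) and -0.50 (H4ac/H3), against -0.16 and -0.16 in the 10. This list shares a gene with the replication fork list, and row lengths were not matched between the lists and the 10.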

How the data were processed

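The authors mapped single-end reads of 50 nt uniquely with Bowtie2 to assembly ASM294v2 and deposited 19343 annotated rows whose signal is a tag density (tags per nt). How tags were assigned to rows and how libraries were scaled is not given in the sources used here. Density times length gave whole multiples of 1 step per library in 100% of rows (within 0.05), from which tags were recovered. The 3 pooled columns were not used.

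Log2(density + 0.01) was fitted with limma 3.58.1 (R 4.3.3, eBayes with trend, 3 groups) over the 5128 of 5129 genes that reached 0.05 tags per nt in 2 or more libraries, with Benjamini-Hochberg adjustment over these genes. Fold changes on this scale understate changes at low density. Calls needed an adjusted p under 0.05. The fit was run on simulated densities with 200 genes changed and all others unchanged. In the real data most genes passed the tests against H3, so that simulation does not tell how the calls behave here. Symbols and promoter sequences came from RefSeq (ASM294v3), in which the coding starts of 10 of 10 genes read ATG at the table's position.

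The 10 genes and the gene lists were chosen with earlier results of these data known. Genes named are these 10, the XUTs and gene rows overlapping or next to them, the nearest gene to each by signal, and the 2 highest and 2 lowest of each list by the mean of log2 H3K14ac/H3 and log2 H4ac/H3, with cdc10 added as the remaining MBF gene after its value was seen. Alternatives were other pseudocounts, median centring, coding exons, no filter, a replicate block, voom, a fold threshold, other overlaps and leaving out each library.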

Additional observations from a re-analysis of the deposited data

How the results depend on the processing

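Each of the 30 ratios of the 10 genes was recomputed under 14 alternatives, and 22 had the same sign and call in all of them but the 1.5-fold threshold. Requiring at least 1.5-fold in addition reduced the counts of called genes to 0 higher and 3 lower for H3K14ac against H3, 0 and 3 for H4ac against H3, and 0 and 0 for H3K14ac against H4ac. Of all 5128 genes, 2320, 2129 and 126 met both requirements in these comparisons, in either direction. By voom on recovered tags, 4 genes rather than 2 had H4ac above H3, with cig2 and cdt2 added, and the genes below H3 were 5 rather than 6 in each mark, without cig2 for H3K14ac and without suc22 for H4ac. Over coding exons only, signs turned for cig2 H3K14ac/H3 (0.0037), nrm1 H4ac/H3 (-0.031), nrm1 H3K14ac/H4ac (0.15) and cdt2 H4ac/H3 (-0.0049). The asXUT difference in H3K14ac/H3 was 0.55 over coding exons, 0.43 for XUTs covering at least 50% of the gene and 0.48 for any antisense noncoding row. The last 2 settings regroup the genes, with 2 and 6 of the 10 on the antisense side, so they are not like-for-like with the main split. The difference in H4ac/H3 reversed to 0.022, 0.14 and 0.48 under the same settings, reversed without cig2 or nrm1 (0.33) or suc22 (0.27), and was -0.17 with a pseudocount of 0.1. The difference in H3 was 0.0079, 0.11 and 0.067 under the same 3 settings. Leaving out 1 library gave H4ac/H3 differences of -0.22 to -0.16. The cause of these changes was not tested, and leaving out each gene was an alternative added after seeing the data. Replicates sharing a number deviated together only weakly (r of 0.02, 0.0006 and 0.14). This does not show whether samples of the same number came from the same culture, and the main fit used no pairing. With a replicate block, the genes with H3K14ac below H4ac were 3 instead of 4, as nrm1 was lost (adjusted p = 0.0565), and the other 5 counts were the same (3, 6, 2, 6 and 5).

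Each antibody has 2 replicates of 1 strain, so a spread is estimated mainly across genes. Without Input, differences in mappability and background between genes cannot be told apart from the signal, although ratios between antibodies share them. A density over a whole row averages the start, body and end of a gene, and overlapping rows share tags. The main split by asXUT compares 5 genes with 5. Counting error at 1427 to 6308 tags per row is small beside these limits.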
